A study of Mus musculus with 6 samples.

Results

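Chemokines are small secreted proteins that direct the movement of cells, and the genes studied here are those of the chemokines and of their receptors. Every protein-coding gene whose symbol starts with Ccl, Cxcl, Ccr or Cxcr followed directly by a digit was taken, with Cxcl12 left out, which gave 51 of the 21853 protein-coding genes of the mouse annotation. Of these, 34 encode ligands (23 Ccl and 11 Cxcl genes) and 17 encode receptors (11 Ccr and 6 Cxcr genes). Ligands bind to receptors on the target cell that signal through G proteins of the Gi class, and the cell then moves up the gradient. Inflammatory chemokines are switched on by injury or infection and draw in monocytes, neutrophils and T cells, whereas homeostatic chemokines are made steadily and place cells within a tissue. In bone marrow, stromal cells and macrophages both make chemokines, and the receptors are carried mainly by blood cells.

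ATAC-seq, in which a transposase cuts and tags open chromatin, was performed on skeletal stem and progenitor cells (SSPCs) from the tibial and femoral bone marrow of C57BL/6 mice. There were 3 libraries from young and 3 from middle-aged mice, all untreated and all from plated marrow cells at passage 1, so that any marrow cell that adheres and survives in culture could have been included. The labels give no age in months and do not tie a library to a mouse, so p-values measure only the spread between these libraries, which may be technical. The data are 1 list of called peaks per library, and the lists held 35953, 43941 and 27628 peaks for young libraries 1 to 3 and 46364, 46745 and 48344 peaks for middle-aged libraries 1 to 3. The background coverage solved from the lists ran from 1.65 reads per base in young library 3 to 3.75 in young library 1. Young library 3, with the shortest list and the lowest coverage, stood apart from the others.

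The label was checked against genes that define cell types, by peaks at their start sites. Of 10 SSPC and stroma genes, 8, 7 and 4 had such a peak in young libraries 1 to 3 and 8 in each middle-aged library, and neither Lepr, the leptin receptor that marks marrow stromal progenitors, nor Prrx1, a limb mesenchyme factor, had one in any library. Of 10 macrophage and myeloid genes, 8 had a peak in all 6 libraries. The same held for 4 of the 10 SSPC and stroma genes and for 48.4% of all protein-coding genes. Among the 8 were Spi1, which encodes the myeloid factor PU.1, and Tyrobp, a myeloid adaptor. Csf1r, the receptor of a macrophage growth factor, had a peak in 2 young libraries only. At least 1 library had a start-site peak for 2 of 10 lymphocyte genes, for 3 of 8 neutrophil, 4 of 6 endothelial and 3 of 6 erythroid genes. This was so for 8 of 10 SSPC and stroma genes, 10 of 10 macrophage and myeloid genes and 61.5% of all protein-coding genes. Of the lymphocyte genes, Cd3d, part of the T cell receptor complex, had a peak in all 6 libraries, with a mean rank of 47.2 in the young and 76.4 in the middle-aged libraries and no overlap, and Pax5, a B cell factor, had one in the 3 middle-aged libraries only, while Cd3e, Cd4 and Cd8a had none. The mean rank of the called macrophage and myeloid genes was 52.1, 48.2 and 39.4 in the young libraries and 61.4, 60.8 and 64.2 in the middle-aged ones, the same direction as that of the chemokine ranks given below. The median difference of the macrophage and myeloid genes called in all 6 libraries was 10.8 rank points, beside 12.4 over all 4063 genes with a mean rank between 20 and 80. The mean rank of the called SSPC and stroma genes was 37.6, 44.8 and 35.6 in the young and 50.2, 56.5 and 50.5 in the middle-aged libraries. The means of both lists cover different genes in different libraries. Fewer SSPC and stroma genes were called in young libraries 2 and 3. Of the macrophage and myeloid genes, 8, 10 and 9 were called in the young and 9, 9 and 8 in the middle-aged libraries. Csf1r, called only in young libraries 2 and 3, ranked low there, at 17.3 and 6.19. The median difference of the SSPC and stroma genes called in all 6 libraries was 12.9, beside the same 12.4. The part of either cell type in the chemokine peaks was not tested, and more open cells and more open chromatin per cell cannot be told apart in bulk libraries.

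To determine which chemokine genes lie in open chromatin, peaks within 1000 bp of any start site of a protein-coding transcript were assigned to the gene. Such a start-site peak was found in at least 1 library for 18 of the 51 genes. These were 15 ligands (44.1%) and 3 receptors (17.6%), against 61.5% of all protein-coding genes. In all 6 libraries it was found for 9 ligands and 2 receptors, against 48.4% of all protein-coding genes. Both shares lay below those of all genes, and the receptors had the lowest. This is a description with no test, and a peak is not a measure of expression. The ligands with a peak were Ccl2, Ccl3, Ccl4, Ccl7, Ccl9, Ccl12, Ccl24, Ccl25, Ccl27a, Cxcl1, Cxcl2, Cxcl3, Cxcl10, Cxcl14 and Cxcl16, and the receptors were Ccr1, Cxcr3 and Cxcr4.

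**Figure D1:**
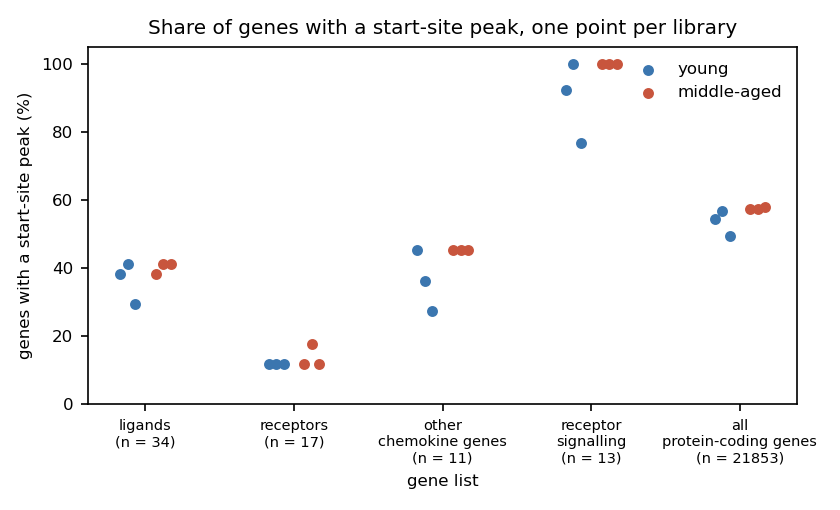
Percent of genes with a peak within 1000 bp of a start site, with 1 point per library (blue, young; red, middle-aged) for the 34 ligands, the 17 receptors, 11 other chemokine genes, 13 genes of receptor signalling and all 21853 protein-coding genes. Receptors lie lowest, at 2 genes in every library but middle-aged library 2, which has 3.

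The number of ligands with a start-site peak was 13, 14 and 10 in the young libraries and 13, 14 and 14 in the middle-aged libraries. Their means were 12.3 ± 2.08 and 13.7 ± 0.577 (SD, n = 3), and the groups overlapped, with young library 3 the lowest. Over all protein-coding genes the share was 53.6% in young and 57.6% in middle-aged libraries, a difference of 4.01 percentage points beside 3.92 points for the ligands. For receptors the numbers were 2, 2 and 2 in the young and 2, 3 and 2 in the middle-aged libraries, the added gene being Ccr1, a receptor for Ccl3 and other inflammatory ligands on monocytes, whose only peak ranked at 6.84 of 100. With a window of 2000 bp the receptors numbered 3.67 per young and 5.33 per middle-aged library, since Ccr3, Ccr2, Ccr10 and Ccr4 have peaks between 1146 and 1713 bp from a start site. The share over all genes was not computed for that window, so the wider count is not a result about receptors.

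For 33 genes no start-site peak was called in any library. The 19 ligands among them were Ccl1, Ccl5, Ccl6, Ccl8, Ccl11, Ccl17, Ccl19, Ccl20, Ccl21a, Ccl21b, Ccl22, Ccl26, Ccl27b, Ccl28, Cxcl5, Cxcl9, Cxcl13, Cxcl15 and Cxcl17. They include the ligands of Ccr7 on T cells and dendritic cells (Ccl19 and Ccl21a) and of Cxcr5 on B cells (Cxcl13). The 14 receptors included Ccr1l1, Ccr2, Ccr3, Ccr4, Ccr6, Ccr7, Ccr8, Ccr9, Ccr10, Cxcr1, Cxcr2, Cxcr5 and Cxcr6. Among these are Ccr2, which classical monocytes carry, and Cxcr2, which neutrophils carry. The nearest peak of any library lay 1328 to 481423 bp from the start site for the ligands (median 11234 bp) and 1146 to 19884 bp for the receptors (median 4457 bp). The most distant were Ccl21b, Ccl27b, Ccl19 and Ccl21a, which lie in a stretch of chromosome 4 with repeated gene copies, where reads may not be placed at a single site. How many reads were lost there was not tested.

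Promoter sequences are shown for a trio of paralogs that differ in their peaks, for Cxcl10, which holds 2 sites of the same motif, and for Cxcr4, a receptor whose ranks differed between the ages. RefSeq sequences (GRCm38.p6, the build named mm10) matched 37 of the 51 genes, with 44 promoters. In each, the 250 bases before the RefSeq start were searched on both strands for 6 motifs: the NF-kB motif, TGANTCA for AP-1, TTGCNNAA for C/EBP, GAGGAAGT for PU.1, GAAANNGAA for IRF and, as core of the box near many start sites, TATAAA. Cxcl1, Cxcl2 and Cxcl3 are neighbouring copies on chromosome 5 that draw neutrophils through Cxcr2, and Cxcl10, induced by interferon, is a ligand of Cxcr3. Capitals mark the NF-kB motif, and overlapping matches on the 2 strands were merged. The intervals are chr5:90890995-90891244, plus strand, for Cxcl1, chr5:90903649-90903898, plus strand, for Cxcl2, chr5:90785851-90786100, plus strand, for Cxcl3 and chr5:92348890-92349139, minus strand, for Cxcl10. For Cxcr4, the receptor of stromal-derived Cxcl12 that retains blood cells in the marrow, the interval is chr1:128592300-128592549, minus strand, and capitals mark the TATA box, which matched on both strands.
Cxcl1: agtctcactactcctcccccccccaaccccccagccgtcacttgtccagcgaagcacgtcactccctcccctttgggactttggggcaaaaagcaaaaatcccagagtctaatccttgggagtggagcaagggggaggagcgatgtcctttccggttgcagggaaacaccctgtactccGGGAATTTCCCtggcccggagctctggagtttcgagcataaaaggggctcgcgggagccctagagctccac
Cxcl2: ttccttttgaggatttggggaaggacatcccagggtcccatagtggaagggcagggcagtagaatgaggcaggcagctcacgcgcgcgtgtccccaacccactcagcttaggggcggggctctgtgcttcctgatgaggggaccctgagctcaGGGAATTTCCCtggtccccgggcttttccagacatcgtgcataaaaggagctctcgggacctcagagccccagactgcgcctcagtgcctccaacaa
Cxcl3: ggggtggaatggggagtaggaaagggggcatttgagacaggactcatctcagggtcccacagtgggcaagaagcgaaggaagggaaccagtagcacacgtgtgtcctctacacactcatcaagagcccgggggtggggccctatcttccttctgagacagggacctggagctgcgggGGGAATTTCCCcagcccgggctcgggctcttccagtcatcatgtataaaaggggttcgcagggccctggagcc
Cxcl10: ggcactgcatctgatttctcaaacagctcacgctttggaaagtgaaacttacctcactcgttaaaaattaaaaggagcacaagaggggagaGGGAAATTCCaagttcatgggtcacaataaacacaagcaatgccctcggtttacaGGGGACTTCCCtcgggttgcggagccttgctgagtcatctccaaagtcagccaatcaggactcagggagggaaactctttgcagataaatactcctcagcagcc
Cxcr4: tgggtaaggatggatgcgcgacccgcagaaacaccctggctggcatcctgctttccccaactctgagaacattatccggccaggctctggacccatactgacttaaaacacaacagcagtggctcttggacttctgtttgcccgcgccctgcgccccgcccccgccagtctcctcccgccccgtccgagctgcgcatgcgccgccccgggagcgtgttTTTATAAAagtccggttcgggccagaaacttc
The NF-kB match covers the bases from 71 to 61 upstream of the start in Cxcl1, from 97 to 87 in Cxcl2 and from 73 to 63 in Cxcl3, and Cxcl10 holds matches from 159 to 150 and from 104 to 94. The same 11 letters stand in Cxcl1, Cxcl2 and Cxcl3, although these genes had a start-site peak in 4, 6 and 1 library. The TATA box of Cxcr4 lies from 32 to 25 bases upstream.

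The NF-kB motif was held by 10 of the 44 promoters (22.7%), against 8.03% of 20143 promoters of protein-coding genes. By kind, 7 of 30 ligand promoters (23.3%) and 3 of 14 receptor promoters (21.4%) held it. Of the genes with a start-site peak, 13 had a matched promoter, and the motif was held by Ccl9, Ccr1, Cxcl1, Cxcl2, Cxcl3 and Cxcl10. Ccl2, Ccl4, Ccl7, Ccl24 and Cxcl16 had no matched promoter and were not searched. The TATA box was found in 25.0% of the promoters, against 11.2% of all, and the IRF motif in 18.2%, against 6.91%. AP-1 stood at 13.6% against 6.13%, C/EBP at 13.6% against 8.96% and PU.1 at 2.27% against 2.28%, its only match being in Cxcr3. Paralogs share sequence, so these promoters are not independent, and a match is no evidence of binding. The median GC content was 48.2%, against 56.0% of all promoters, 60.4% of promoters of genes with a start-site peak in all 6 libraries and 47.6% of those of genes with none.

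**Figure D2:**
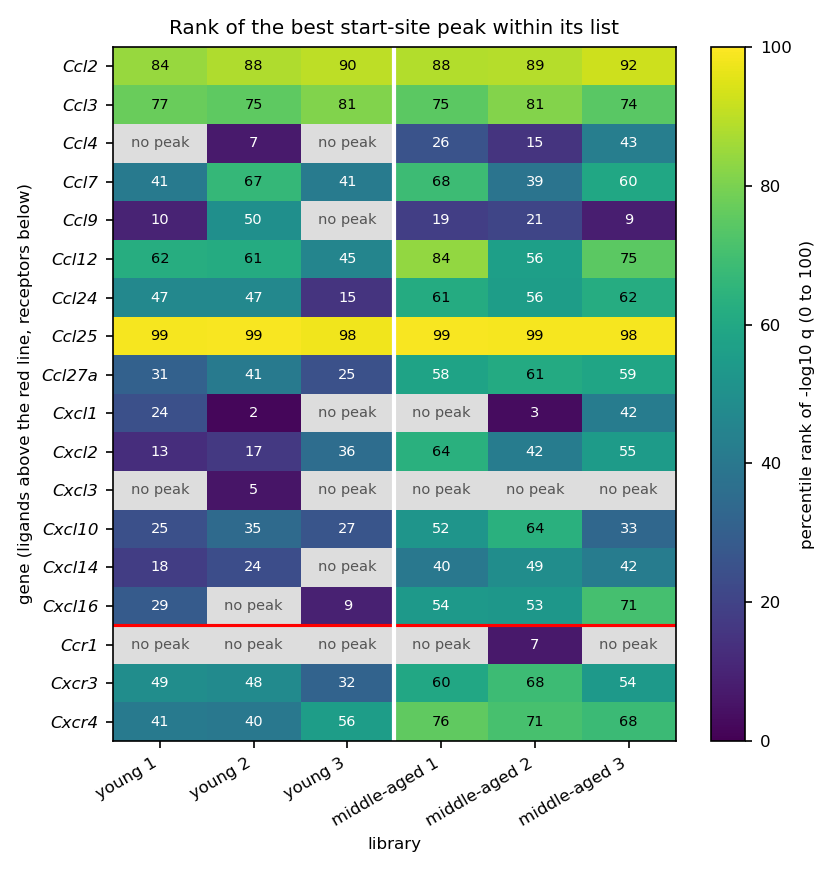
Percentile rank (0 to 100) of the −log10 q of the best start-site peak within its own list, for each gene with a peak (rows, ligands above the red line) in each library (columns). Ccl25, Ccl2 and Ccl3 are high in every library, and the rows of Cxcl2, Cxcl14 and Cxcl16 are darker in the young columns.

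Because the lists differ in length and depth, each peak was described by its rank within its list, the percentile of its −log10 q, where 100 is the strongest peak. The 11 genes with a peak in all 6 libraries had a median mean rank of 52.6, against 84.9 over all 10569 such genes. The highest ligands were Ccl25, Ccl2, Ccl3, Ccl12 and Ccl7. Ccl25, which attracts thymocytes and gut T cells through Ccr9, ranked 98.6, 99.0 and 97.7 in the young and 99.1, 98.5 and 98.5 in the middle-aged libraries. The groups overlapped, and the peak also lies 248 to 259 bp from a start site of Elavl1, so it cannot be given to Ccl25 alone. The other RefSeq promoter of Ccl25, chr8:4349338-4349637, had no peak on it in any library.

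Ccl2, the main attractant of Ccr2-bearing monocytes, ranked 84.5, 88.2 and 90.1 in the young and 88.3, 88.9 and 92.2 in the middle-aged libraries. Its peak had its summit at positions −140 to −41 from the start and an enrichment of 8.58 to 11.7 times the local background, and it was among the strong peaks of every library. The means of 87.6 ± 2.83 and 89.8 ± 2.09 (SD, n = 3) differed by 2.22, and the groups overlapped (exact permutation test, two-sided, p = 0.4, where 0.1 is the smallest that 3 against 3 libraries allow). Ccl3, a ligand of Ccr1 made by activated macrophages, ranked 77.0, 75.0 and 81.1 in the young and 74.8, 81.3 and 74.4 in the middle-aged libraries. This was the only gene of the 11 with a lower mean in the middle-aged group, a difference of −0.919 that lay within the spread of either group (exact permutation test, two-sided, p = 0.6).

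Ccl7 and Ccl12 lie beside Ccl2 on chromosome 11 and, like it, attract monocytes through Ccr2. Ccl12 ranked 62.2, 61.4 and 45.4 in the young and 83.8, 56.4 and 74.9 in the middle-aged libraries. Ccl7 ranked 40.7, 66.8 and 41.5 in the young and 68.4, 38.5 and 59.7 in the middle-aged libraries. The groups overlapped for both genes (exact permutation tests, two-sided, p = 0.3 and p = 0.9), and middle-aged library 2 was the lowest of its group each time. Cxcl10 ranked 24.6, 34.6 and 26.5 in the young and 52.0, 63.6 and 33.4 in the middle-aged libraries, where library 3 fell below the highest young library (exact permutation test, two-sided, p = 0.2).

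The ranks of 3 of the 9 ligands did not overlap between the ages, all of them higher in the middle-aged libraries, against 30.6% of all genes with a peak in all 6 libraries. The same held for both receptors, Cxcr3 and Cxcr4. No ligand or receptor was lower without overlap, against 0.274% of all genes. Counted together, 5 of 11 genes stand beside that background of 30.6%. A mean rank between 20 and 80 is a band in which 9 of the 11 genes fall. In it, 5 of 9 genes stand beside 34.5% of all 4063 genes. The median difference was 17.8 rank points over the 11 genes and 4.97 over all genes, but ranks near 100 leave little room to rise. In the band it was 21.1 for the 9 genes and 12.4 for all genes. Without young library 3 these medians were 13.0 and 6.60. The band does not match the 9 genes in rank, since 1651 of its 4063 genes rank between 70 and 80, with a median difference of 9.95. All of the 9 but Ccl3 have mean ranks between 30 and 70. There the medians of all genes, per 10 rank points, were 15.3, 18.4, 17.1 and 14.1. The ligands free of overlap numbered 5 without young library 2 and also 5 without young library 3, the number of genes compared being 10 and 11. Fewer libraries leave fewer ranks to overlap for any gene, so the 30.6% does not apply to these counts. The share over all genes was not computed for them, and they are not a result about ligands.

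**Figure D3:**
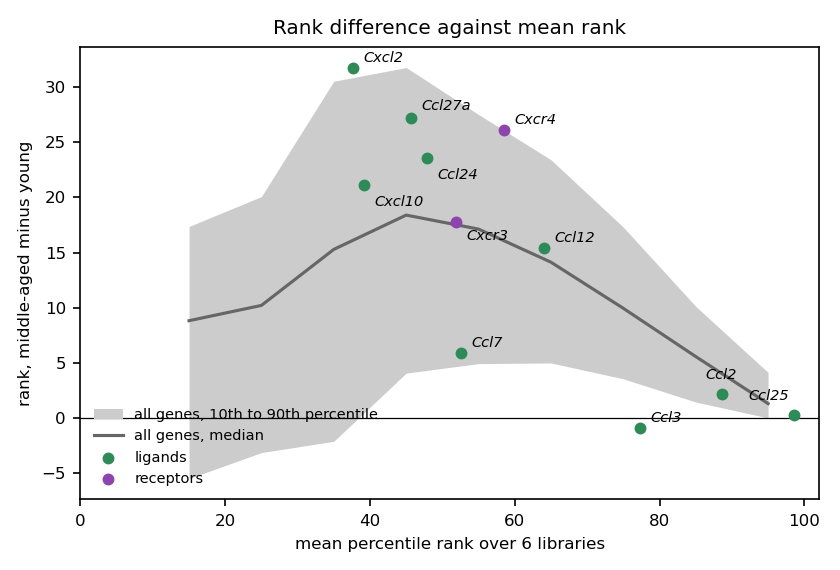
Difference in percentile rank (middle-aged mean minus young mean) against the mean rank over 6 libraries for the 11 genes with a peak in all of them (green, ligands; purple, receptors). The grey area holds the 10th to the 90th percentile of all genes per band of 10 rank points (bands of at least 20 genes) and the dark line their median; Cxcr4 and Cxcl2 lie at its upper edge and Ccl3 below it.

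Cxcl2, the ligand of Cxcr2 on neutrophils shown above, ranked 12.9, 16.8 and 35.7 in the young and 63.6, 42.1 and 54.9 in the middle-aged libraries. Every middle-aged library was above every young one, and the difference of 31.7 was the widest among the 11 genes. Ccl27a, a ligand of Ccr10 in skin, ranked 30.9, 40.6 and 24.8 in the young and 57.9, 61.3 and 58.7 in the middle-aged libraries. A RefSeq promoter of Ccl27a further inside the gene, chr4:41770163-41770462, had no peak on it in any library. The peak that was ranked lay 421 to 497 bp inside the gene except in middle-aged library 2, where a peak at the start itself was stronger. When the inner peak was used there too, in a comparison chosen after seeing the data, its rank in that library was 44.2 and the groups still did not overlap. Ccl24, an eosinophil attractant that acts through Ccr3, ranked 46.8, 46.6 and 15.0 in the young and 61.5, 55.6 and 62.0 in the middle-aged libraries. Young library 3 lay far below the other young libraries for this gene, and all of them lay below the middle-aged group.

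Cxcr4 ranked 40.6, 39.9 and 55.8 in the young and 75.6, 70.9 and 68.1 in the middle-aged libraries. The means were 45.4 ± 9.0 and 71.5 ± 3.78 (SD, n = 3), and here young library 3 was the highest of its group. Cxcr3, the receptor of Cxcl9 and Cxcl10 on activated T cells, ranked 49.2, 47.8 and 31.9 in the young and 60.1, 68.4 and 53.9 in the middle-aged libraries. Its summit lay 131 to 257 bp inside the gene rather than upstream of the start. For these 5 genes the exact permutation test gave p = 0.1 (two-sided), the smallest value it can give here. Every gene without overlap gets this value, so the test adds nothing to the absence of overlap by which they were picked.

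**Figure D4:**
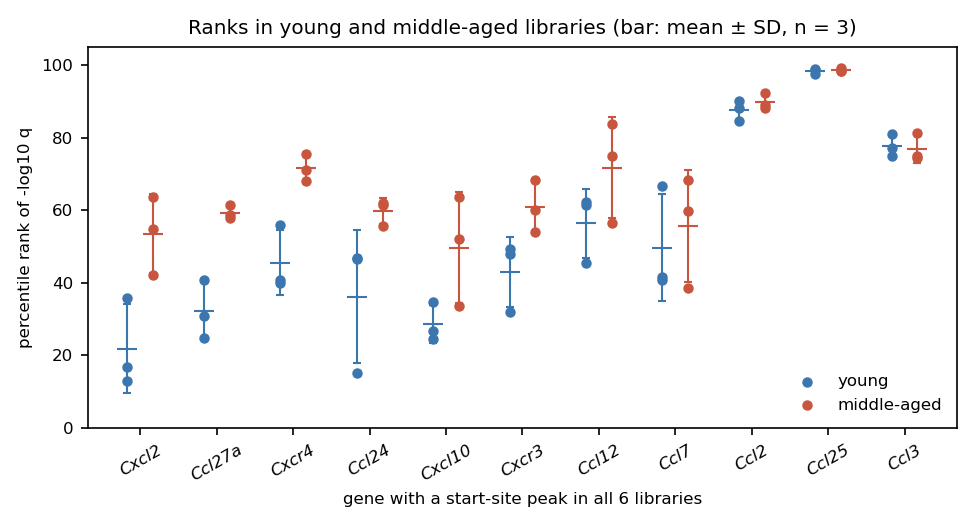
Percentile rank of the best start-site peak in each young (blue) and middle-aged (red) library for the 11 genes with a peak in all 6, ordered by the difference between the ages. Points are libraries and bars the mean ± SD (n = 3); the colours do not overlap for Cxcl2, Ccl27a, Cxcr4, Ccl24 and Cxcr3.

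Across all genes, limma on the logit of the rank found 1 gene past an adjusted p of 0.05, which is 0.00946% of those tested, and none of the 11 chemokine and receptor genes. At an unadjusted p under 0.05, 6 of the 11 were higher in the middle-aged libraries, against 18.6% of all genes. These were Ccl27a, Cxcr4, Cxcl2, Cxcl10, Ccl24 and Cxcr3. Each had an adjusted p of 0.264 in limma, with differences on the logit scale from 0.74 ± 0.30 for Cxcr3 to 1.51 ± 0.39 for Cxcl2 (± SE). In the same fit Ccl12 had an adjusted p of 0.287, and Ccl2, Ccl7, Ccl25 and Ccl3 lay between 0.564 and 0.893.

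On another scale, the summit height over the background coverage of the list, limma called 4 of the 11, namely Ccl12, Ccl27a, Cxcl2 and Cxcr4, at an adjusted p under 0.05. That scale called 49.6% of all genes higher in the middle-aged libraries, with a median difference of 0.48 on the log2 scale. The log2 differences were 0.69 for Cxcr4, 0.60 for Ccl12, 0.59 for Cxcl2 and 0.49 for Ccl27a, so that Ccl27a differed by about as much as the median gene. When peaks were ranked among start-site peaks only, none of the 11 genes was free of overlap in either direction. Of all genes, 5.86% were then higher in the middle-aged libraries without overlap, and the share that was lower was not computed. With lists cut to equal length, 6 of the 9 ligands could still be compared, and of these Ccl27a alone remained without overlap. Cxcl2 was not among the 6, and both receptors overlapped. The share of all genes without overlap was not computed for lists of equal length.

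Presence in the lists differed by at least 2 libraries for a single gene. Ccl4, an inflammatory ligand whose gene lies beside Ccl3, had a start-site peak in young library 2, at a rank of 7.25, and in all 3 middle-aged libraries, at 25.5, 15.1 and 42.6. Such a difference was seen for 2.78% of all protein-coding genes, and one in the other direction, seen for 0.11%, occurred for no ligand or receptor. With lists of equal length the difference for Ccl4 was 0 libraries, and it was also 0 with a window of 2000 bp.

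The other ligands were called in part of the libraries. Cxcl14, a chemokine of skin and other epithelia, ranked 18.2 and 23.7 in young libraries 1 and 2, had no peak in library 3, and ranked 40.1, 49.0 and 41.9 in the middle-aged libraries. Cxcl16, a membrane-bound ligand of Cxcr6, ranked 28.8 and 9.14 in young libraries 1 and 3 and 53.6, 52.9 and 70.5 in the middle-aged libraries, and its peak also lies at a start site of Zmynd15. Every called middle-aged rank of these genes was above every called young one, but a missing value is not a rank. Ccl9, a macrophage ligand of Ccr1, was called in 5 libraries and ranked highest in young library 2, at 49.7. Cxcl1 was called in young libraries 1 and 2 at 24.4 and 1.64 and in middle-aged libraries 2 and 3 at 3.14 and 42.0. Cxcl3 was called only in young library 2, at 5.49, so that of the trio of paralogs only Cxcl2 was called throughout.

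By function, 3 of 9 homeostatic ligands had a start-site peak in any library, 7 of 16 inflammatory CC ligands, 3 of 5 neutrophil-attracting CXC ligands and 1 of 2 interferon-inducible CXC ligands, beside the 61.5% of all genes. None of these groups held a gene past an adjusted p of 0.05 in limma. Of 11 other chemokine genes, 7 had a peak, and Cx3cr1 (the fractalkine receptor of monocytes and macrophages), Pf4 (platelet factor 4) and Ackr4 (a scavenger of Ccl19, Ccl21 and Ccl25) had it in all 6. Ackr4 ranked 49.7, 42.9 and 2.45 in the young and 63.3, 61.6 and 73.5 in the middle-aged libraries, without overlap. Pf4 also did not overlap, with means of 69.2 and 76.1, and Cx3cr1 did, so that 2 of these 3 genes stand beside the 30.6% of all genes. All 13 genes of receptor signalling had a peak in some library and 9 in all 6. Arrb1, an arrestin that ends receptor signalling, had means of 61.0 and 76.2, and Elmo1, which links receptors to Rac, had means of 50.3 and 74.7. Together with Gnai2, the Gi subunit of leukocytes, at 94.3 and 96.3, they did not overlap between the ages, which is 3 of 9 genes and close to the 30.6% of all genes. No gene of these lists passed an adjusted p of 0.05 in either direction.

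Chemokine genes lie in clusters, and 5 clusters of at least 3 of them with at most 1 Mb between neighbours, each extended by 10 kb, cover 2129 kb. They held 56, 66 and 39 peaks in the young and 64, 72 and 65 in the middle-aged libraries. As a percent of the list this was 0.149 ± 0.00737 and 0.142 ± 0.0104 (SD, n = 3), a difference of −0.00687 within the spread of the libraries (exact permutation test, two-sided, p = 0.4). Merged over the libraries, the peaks formed 92 regions, of which 30 were called in all 6 libraries and 74 lay more than 1000 bp from any start site of a protein-coding transcript in GENCODE. Start sites of non-coding transcripts were not considered.

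The receptor cluster on chromosome 9, which holds Ccr9, Cxcr6, Ccr1, Ccr1l1, Ccr3 and Ccr2, had the most regions, 39, of which 36 lay away from start sites. It is also long, at 489 kb, and its 5.08 peaks per 100 kb were below the 7.13 of the Ccl5 to Ccl4 cluster and the 7.0 of the Cxcl5 to Cxcl2 cluster. Of these 36, 12 were called in all 6 libraries, while Ccr9, Cxcr6, Ccr1l1, Ccr3 and Ccr2 had no start-site peak in any library and Ccr1 in only 1. A region between Ccr3 and Ccr2, chr9:124037703-124038173, lay 15731 bp from the start of Ccr3 and ranked 82.7, 79.9 and 79.6 in the young and 82.7, 83.2 and 82.0 in the middle-aged libraries. A region inside Ccr9, chr9:123769413-123769842, ranked 75.9, 81.5 and 74.8 in the young and 85.2, 78.8 and 78.9 in the middle-aged libraries. Both regions ranked high at both ages, and the ages overlapped. Another lies 236 bp from the start that RefSeq gives for Ccr1l1, so the count of receptors with a start-site peak depends on the annotation. Over all 5 clusters, 19 regions away from start sites were called in all 6 libraries.

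**Figure D5:**
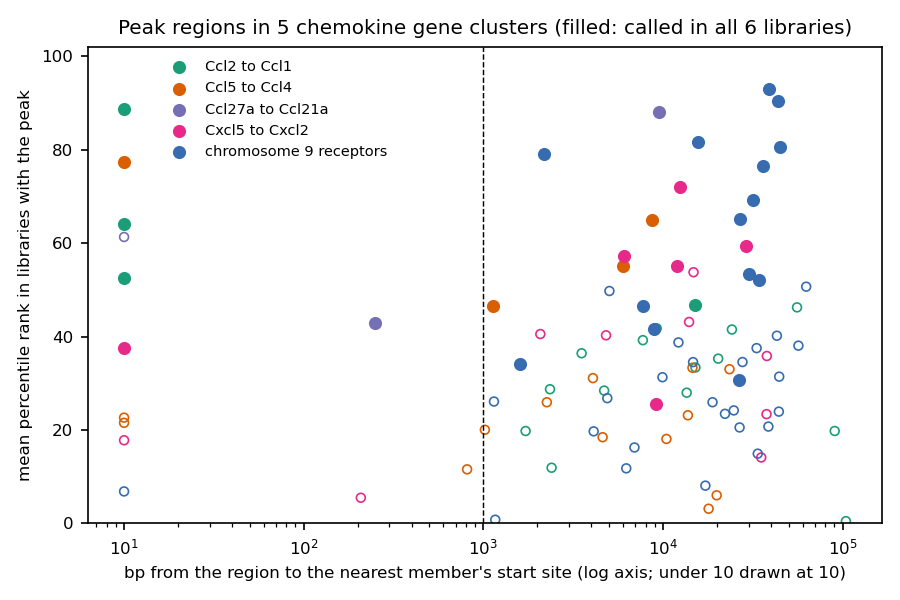
Mean percentile rank of the 92 merged peak regions in the 5 clusters, in the libraries where they were called, against the distance to the nearest start site of a chemokine or receptor gene (log axis; the dashed line is 1000 bp). Colours are clusters and filled points were called in all 6 libraries; the filled points of the chromosome 9 receptor cluster all lie beyond the dashed line.

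Of the 30 regions called in all 6 libraries, 8 were higher in the middle-aged libraries without overlap, against 24.3% of such regions genome-wide, and 1 was lower, against 0.495%. The widest difference away from a start site was at chr11:83577067-83577509, inside Ccl9 and 1127 bp from its start, with ranks of 32.9, 35.3 and 21.3 in the young and 61.1, 53.0 and 75.3 in the middle-aged libraries. A region near Ccl3, chr11:83639915-83640698, differed less, with 59.7, 58.6 and 61.8 in the young and 78.3, 65.4 and 65.6 in the middle-aged libraries. The region that was lower, chr5:90881659-90882060, lies 9181 bp from the start of Cxcl1 and ranked 26.1, 46.4 and 35.4 in the young and 14.4, 8.62 and 22.2 in the middle-aged libraries. Its direction was opposite to that of the start-site peak of Cxcl2 in the same cluster. A region 35234 bp from Cxcl1, chr5:90855366-90856007, was called in all 3 middle-aged libraries and no young one, as were 2.21% of all regions, at ranks of 4.59, 10.3 and 27.5.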

How the data were processed

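ATAC-seq of 6 libraries was analysed from the called peaks. According to the study's methods, the authors made reads with bcl2fastq, mapped them to mm10 with Bowtie2, removed duplicates with Sambamba and called peaks with MACS for each library. Whether reads were shifted for the transposase is not given in the sources used here. The deposited lists give a score, a fold enrichment at the summit, and −log10 p-values and −log10 q-values. They hold no reads, so the DiffBind test of the study could not be run. Start sites came from GENCODE vM21. For each gene and library the peak with the highest −log10 q within 1000 bp of a start site was ranked within its list. Summit pileup was solved from fold enrichment and −log10 p. Ages were compared with limma 3.58.1 (R 4.3.3) on the logit rank, with Benjamini-Hochberg adjustment over 10569 genes. Exact permutation tests over 20 assignments were used for single genes. The limma fit was also run on simulated data with independent noise for each gene. Those data held no shift common to a whole library, so they do not check the fit against such shifts. Every gene with a start-site peak is named. Values per library are given for genes whose ranks did not overlap, whose presence differed by at least 2 libraries, the 5 highest ligands and receptors, and Ccl2. Other genes with values were chosen after these were seen. The genes and lists were chosen with earlier results of these data known. Alternatives changed the peak threshold, list length, depth, window, scale, libraries and cluster extension. Equal replicate numbers correlated at 0.00508, −0.0359 and −0.0687. So few values cannot show whether libraries of equal number were prepared together. Some items are not reported here.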

Additional observations from a re-analysis of the deposited data

How the results depend on the processing

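The mean number of ligands with a start-site peak kept its direction under every alternative run, from 0.167 (without young library 3) to 2.17 (without young library 2) against 1.33, while for receptors the difference of 0.333 became 1.67 with a window of 2000 bp. The share of all genes with a start-site peak was not computed for these alternatives. Ligands higher in the middle-aged libraries without overlap numbered 3, and this count became 1 with lists of equal length (6 ligands compared, Cxcl2 not among them), 5 with a window of 2000 bp, 0 with ranks among start-site peaks, and between 3 and 5 when single libraries were left out (5 without young library 2 or without young library 3). Ligands lower without overlap numbered 0 to 1 when single libraries were left out, the 1 being Ccl3 without middle-aged library 2. For receptors the count of 2 became 0 with lists of equal length, 1 with a window of 2000 bp, 0 with the summit height over background and 0 with ranks among start-site peaks. Except for the share that was higher with ranks among start-site peaks, the share of all genes without overlap was not computed for these alternatives. The changed counts are therefore not a result about ligands or receptors. The genes past an adjusted p of 0.05 in limma became 4 with the summit height over background, a scale that moved the median of all genes. The percent of peaks inside the clusters reversed to 0.00121 with lists of equal length. Rank differences reversed for Ccl2 (−1.06 with equal length, −4.19 among start-site peaks), Ccl25 (−0.331 and −1.01, and −0.11 to 0.539 when libraries were left out), Ccl3 (0.14 in log2 height, and −3.14 to 0.779 when libraries were left out) and Ccl7 (−4.77 among start-site peaks and −0.517 to 14.5 when libraries were left out). The causes were not tested. Under a replicate block, the paired differences were 1.33 ligands, 0.333 receptors and −0.00687 percent, and limma called 0 of all genes, against 1 without the block, and again none of the chemokine or receptor genes. Read depth is not in the lists, and no counting interval can be given.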
